A study of Mus musculus with 8 samples.

Results

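The genes of epithelial junctions and simple-epithelial keratins were followed in kidneys of E14.5 mouse embryos. The set held the claudins (gene symbol Cldn and a number), the zonula occludens genes and 16 further genes of junctions, apical polarity, keratin filaments and epithelial gene regulation, and 38 of the 21291 gene rows of the deposited table belonged to it. Mutant embryos (n = 4) carried Six2-GFPcre as a single transgene copy (tg/+), were homozygous null for Etv4 (Etv4-/-) and had 2 floxed Etv5 alleles (Etv5fl/fl). Control embryos (n = 4) had the same Six2-GFPcre tg/+ transgene and Etv5fl/fl alleles with 1 null Etv4 allele (Etv4+/-). Cre and floxed Etv5 were therefore common to both groups, and by the labels the groups differed only in Etv4. Six2-GFPcre drives Cre in nephron progenitors, so Etv5 deletion is directed to these cells and their descendants, whereas the labels do not restrict the Etv4 null allele to any cell type. Each library came from polyadenylated RNA of a kidney pair. The series title asks what the loss of Etv4 and Etv5 from nephron progenitors and their derivatives does to kidney gene expression.

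Tight junctions seal the space between neighbouring epithelial cells. Claudins span the membrane and set which ions pass, occludin and its relatives organise the strands, and zonula occludens proteins and cingulin tie them to the actin cytoskeleton. In the embryonic kidney the ureteric bud is epithelial from the start, while nephron progenitors are mesenchymal and become epithelial as they form the renal vesicle, after which each nephron segment takes on its own claudins. Keratins 7, 8, 18 and 19 are the filament proteins of simple epithelia such as the collecting duct.

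Total estimated counts ranged from 35308934 to 38824018 in mutants and from 15515139 to 39548327 in controls, with control 4 the shallowest library. Etv4, the gene that differs by label, averaged 239 ± 59.8 in mutants and 2686 ± 250.4 in controls (SD, n = 4 each) in normalized counts, a log2 fold change of −3.51 (SE of 0.18 and adjusted p of 2.6e-05 by limma). The 4 Y-linked genes summed to at most 19.6 normalized counts in any mutant and at least 3586 in every control, so genotype and embryo sex cannot be told apart for any gene below. Marker genes fixed for this work showed summed nephron progenitor counts of 5133 to 10872 in mutants and 18988 to 34501 in controls. The summed early nephron markers were 42589.8 to 48553 in mutants and 28082 to 37866 in controls, proximal tubule markers 1442 to 11829 in mutants and 641 to 4705 in controls, and ureteric tip markers 6512 to 12437 in mutants and 16943 to 23008 in controls. The ureteric tip sum includes Etv4, which differs by label, and Etv5, so it is no independent measure of tip cells. In whole kidneys, fewer cells of a type and less RNA per cell cannot be told apart.

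No junction or keratin gene passed the test between mutant and control kidneys. Of the 38 members, 35 had at least 10 normalized counts in at least 4 libraries and were tested, and 0 of the 35 had a limma adjusted p below 0.05, beside 0.301% of all 14974 genes tested (0.0801% higher and 0.22% lower). At an unadjusted p below 0.05 there were 6 members higher in mutants, beside 6.33% of all genes, and 1 lower, beside 5.72%. The 6 were Cldn4, Cldn5, Cgn, Marveld2, Pard6b and Tjp3, and the 1 was Cldn9. With limma voom, which weights each value by its precision, the adjusted count was again 0. Fold changes were positive for 29 of 35 members, beside 51.7% of all genes, and the members' median log2 fold change (mutant over control, on the log2(normalized count + 1) scale) was 0.26, against 0.0087 over all genes. The members' median was 0.16 without mutant 4, 0.17 without control 1 and 0.40 without control 4. When libraries were scaled by total count the positive members numbered 33 of 35, but the median of all genes then shifted by 0.14. The members' values varied together between libraries, so 35 members are not 35 independent observations. The mutant and control libraries did not overlap for 2 members, Cgn above and Cldn9 below, beside 8.6% of all genes (4.17% above and 4.43% below).

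The authors' deposited table of genes with an adjusted p below 0.05 lists 7 of these members. They are 20% of the tested members, and 4.05% of all genes tested here are in that table. In the authors' deposited table Cldn5 has a log2 fold change of 0.88 (adjusted p = 0.00105), Pard6b one of 0.60 (adjusted p = 0.00409), Tjp3 one of 0.75 (adjusted p = 0.0185) and Marveld2 one of 0.60 (adjusted p = 0.0353). The same authors' deposited table gives Esrp2 at 0.77 (adjusted p = 0.0497), Cldn10 at 2.96 (adjusted p = 0.00744) and Cldn9 at −0.52 (adjusted p = 0.0101). Each sign was the same in the limma fit, where all 7 missed the threshold, with adjusted p from 0.112 for Cldn9 to 0.633 for Cldn10. That fit used all 8 libraries, and whether the authors' table did was not tested. The 7 members listed there and the 0 passing here may therefore come from different sets of libraries. Without control 4 the limma fold changes of all 7 were nearer to the authors' values. They were then 0.88 for Cldn5, 0.60 for Pard6b, 0.60 for Marveld2 and 2.30 for Cldn10, and 0 members passed. Fold changes of Cldn4, Pard6b, Marveld2, Esrp2 and Epcam are given below although the naming rule does not take them, and were chosen after their values were seen.

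**Figure D1:**
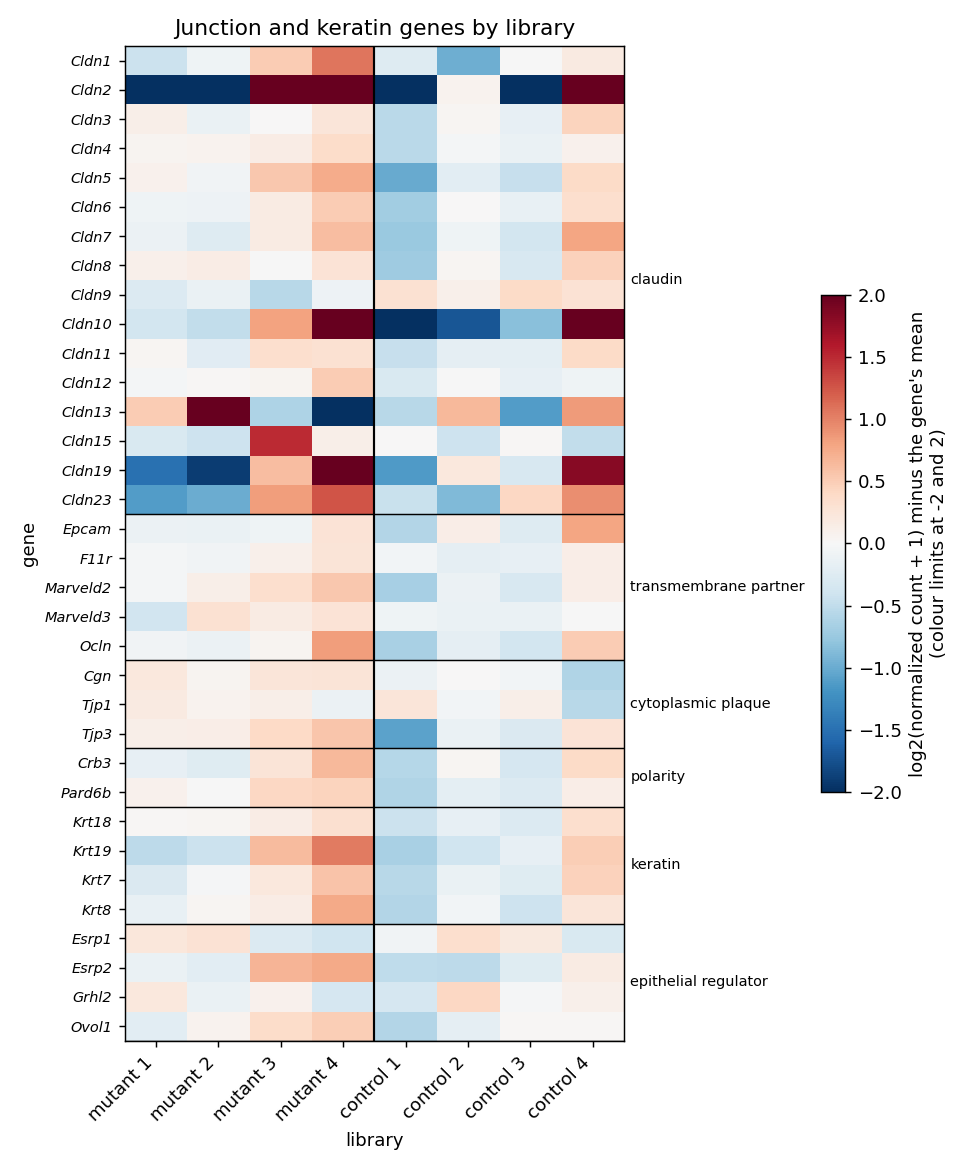
Log2(normalized count + 1) minus each gene's mean over the 8 libraries, for 34 of the 35 tested members in rows grouped by role and the 4 mutant libraries left of the 4 control libraries. Mutants 3 and 4 and control 4 are mostly red and control 1 mostly blue, while Cldn9 is blue in all mutants and red in all controls.

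Claudin-9 and claudin-6 are claudins of the immature kidney, known in mice from the neonatal proximal tubule. Cldn9 had 649, 715, 533 and 729 normalized counts in mutants 1 to 4, against 967, 836, 1017 and 952 in controls 1 to 4. Every mutant library was below every control library, and Cldn9 averaged 656 ± 89.3 normalized counts in mutants and 943 ± 76.3 in controls (SD, n = 4 each). The log2 fold change of Cldn9 was −0.53 (SE of 0.12 and adjusted p of 0.112 by limma). The difference was −0.40 between mutants 1 and 2 and controls 1 and 2, whose library names share a number that the labels do not explain, and −0.39 between mutant 4 and control 4, which share another. Cldn6 lies next to it on chromosome 17 (23679249 to 23682446, plus strand, GRCm38), with 137 bases between its 3′ end and the 3′ end of Cldn9 (23682584 to 23684026, minus strand). Cldn6 had 4501, 4453, 5346 and 6815 normalized counts in mutants, against 2956, 4779, 4309.8 and 6044 in controls, so the groups overlapped and the mutant mean was the higher. The log2 ratio of Cldn6 to Cldn9 was 2.79, 2.64, 3.32 and 3.22 in mutants, against 1.61, 2.51, 2.08 and 2.67 in controls, with control 4 above mutant 2.

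Claudins 3, 4, 7 and 8 are barrier claudins of the collecting duct, and Cldn4 with Cldn8 forms a paracellular chloride path in mouse collecting duct cells. Cldn4 had 3462, 3497, 3728 and 4303 normalized counts in mutants, against 2297, 3245, 3061 and 3565 in controls. Only control 4 was within the mutant range, and the log2 fold change was 0.31 (SE of 0.14 and adjusted p of 0.393 by limma), and 0.18 without control 1. Cldn3 averaged 1780.3 ± 198 normalized counts in mutants and 1694 ± 485 in controls (SD, n = 4 each). Cldn7 averaged 1866 ± 529 normalized counts in mutants and 1713 ± 842 in controls (SD, n = 4 each). Cldn8 averaged 1646 ± 134 normalized counts in mutants and 1431 ± 499 in controls (SD, n = 4 each). For each of these 3 genes control 4 was the highest and control 1 the lowest of the 8 libraries. Summed ureteric trunk and collecting duct markers, with 5 of 9 fold changes positive, were 20210.3 to 22342 in mutants and 17149 to 25039 in controls, and their part in these values was not tested. Cldn3 overlaps an exon of Wbscr25 on the other strand.

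Claudin-5 is the claudin of endothelial junctions. Cldn5 had 2505, 2233, 3422 and 3921 normalized counts in mutants, against 1174, 2035, 1716 and 3086 in controls. Control 4 lay inside the mutant range and the other 3 controls below it. The log2 fold change was 0.64 (SE of 0.28 and adjusted p of 0.395 by limma), and it was 0.88 without control 4 and 0.41 without control 1. All 8 endothelial markers had positive fold changes, 0 of them called, and their summed normalized counts were 20581 to 23098 in mutants and 14312 to 18808 in controls. Their part in the Cldn5 values was not tested.

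For the claudins of differentiated tubule segments, the range within each genotype was larger on the log2 scale than the difference between group means. Claudin-2 forms a cation and water pore in the proximal tubule, and its gene lies on the X chromosome. Cldn2 had 6.53, 0, 253 and 964 normalized counts in mutants, against 5.53, 30.8, 3.73 and 379 in controls. Mutants 3 and 4 and control 4 were high and the other 5 libraries low, and the groups overlapped. Its log2 fold change was 0.58 (SE of 2.14 and adjusted p of 0.943 by limma), with a 95% interval of −4.20 to 5.35. Claudin-10 forms ion pores in the proximal tubule and the thick ascending limb. Cldn10 had 19.6, 18.0, 45.3 and 183 normalized counts in mutants, against 4.61, 7.11, 14.0 and 111 in controls, and a log2 fold change of 1.36 (SE of 1.01 and adjusted p of 0.633 by limma), with an interval of −0.90 to 3.62. Among replicates 1 and 2 both mutants were above both controls, by 1.55 on the log2 scale, and mutant 4 exceeded control 4 by 0.72. The fold change of Cldn10 was 0.66 without mutant 4, 0.84 without control 1 and 2.30 without control 4.

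Claudins 16 and 19 act together in magnesium and calcium uptake in the thick ascending limb. Cldn19 had 15.5, 11.4, 70.5 and 211 normalized counts in mutants, against 20.3, 52.9, 36.3 and 163 in controls, with a log2 fold change of −0.29 (SE of 0.93 and adjusted p of 0.932 by limma). Mutant 4 and control 4 were again the highest libraries, while mutants 1 and 2 were below every control. Cldn16 was not tested; it had 6, 0, 8 and 14 estimated counts in mutants, against 1, 6, 4 and 7 in controls. Hnf4a, no member of the set but a regulator of proximal tubule genes, had 197, 282, 2262 and 4877 normalized counts in mutants, against 1.84, 193, 96.9 and 1547 in controls. Of the 12 of 13 proximal tubule markers in the table, 7 were tested, all 7 with positive fold changes and 0 called. The same 3 libraries that were highest for Hnf4a were highest for Cldn2, Cldn10 and Cldn19. The part of these markers in the claudin values was not tested, since the covariate fit described further on cannot separate it from genotype.

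**Figure D2:**
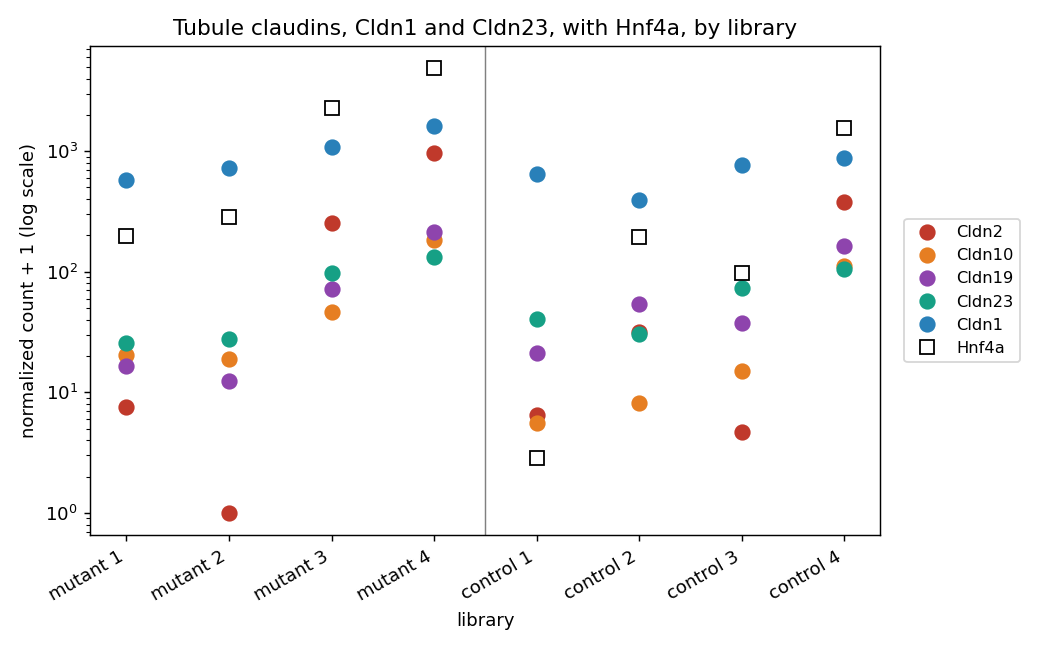
Normalized count + 1 (log scale) of Cldn2, Cldn10, Cldn19, Cldn23 and Cldn1 (filled circles) and of Hnf4a (open squares) in each of the 4 mutant libraries, left of the 4 control libraries. Mutant 4 holds the highest value of all 6 genes, and Cldn2 spans 0 normalized counts in mutant 2 to 964 in mutant 4.

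Claudin-1, a sealing claudin found in the parietal cells of Bowman's capsule, had 571, 729.6, 1092 and 1613 normalized counts in mutants, against 647, 393, 772 and 875 in controls. Mutants 3 and 4 were above every control and mutants 1 and 2 within the control range, with a log2 fold change of 0.52 (SE of 0.34 and adjusted p of 0.572 by limma). That value was 0.26 without mutant 4 and 0.29 without control 2. Cldn23 had 24.5, 26.9, 97.5 and 132 normalized counts in mutants, against 39.6, 29.2, 72.7 and 105 in controls, and a log2 fold change of −0.011 (SE of 0.62 and adjusted p of 0.996 by limma), which was positive under total count scaling (0.12). Its lowest and highest libraries were both mutants. Claudin-11, known from myelin and Sertoli cells, averaged 1360.1 ± 237 normalized counts in mutants and 1177 ± 313 in controls (SD, n = 4 each), and claudin-12 averaged 1563 ± 292 normalized counts in mutants and 1277 ± 107 in controls (SD, n = 4 each).

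Claudin-13 is another claudin of the neonatal mouse kidney. Cldn13 had 10.6, 80.0, 4.35 and 0 normalized counts in mutants, against 4.61, 11.8, 2.80 and 13.8 in controls, with mutant 2 far above the other 7 libraries. Its log2 fold change was 0.078 (SE of 1.22 and adjusted p of 0.986 by limma). Cldn15, an intestinal cation-pore claudin, had 22.0, 20.4, 79.2 and 29.9 in mutants, against 27.6, 20.5, 28.0 and 19.4 in controls, with mutant 3 apart from the other 7 libraries. Cldn18 had 1 estimated count in mutant 4 and 0 in every other library. Cldn24 had 7.09 estimated counts in control 2 and 0 elsewhere. Of the 16 claudins tested, 13 had positive fold changes.

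Marveld2 encodes tricellulin, which closes the corners where 3 cells meet. It had 399.7, 449, 518 and 599 normalized counts in mutants, against 261, 381, 331 and 451 in controls. Mutant 1 and mutant 2 were below control 4 and above the other controls, and the log2 fold change was 0.48 (SE of 0.19 and adjusted p of 0.35 by limma). Ocln, encoding occludin, lies 43238 bases from Marveld2 on chromosome 13 and averaged 749 ± 261 normalized counts in mutants and 593 ± 218 in controls (SD, n = 4 each). Mutant 4 and control 4 were its highest libraries in their groups, at 1138 normalized counts in mutant 4 and 905 in control 4. F11r, the junctional adhesion molecule JAM-A, averaged 2973 ± 324 normalized counts in mutants and 2719 ± 287 in controls (SD, n = 4 each), and Marveld3 averaged 109 ± 22.3 normalized counts in mutants and 94.4 ± 3.87 in controls (SD, n = 4 each). Epcam, an adhesion molecule that binds claudin-7, averaged 2933 ± 420.4 normalized counts in mutants and 3182 ± 1369 in controls (SD, n = 4 each). Its highest library was control 4, at 5084 normalized counts. Of these 5 genes Epcam had a negative fold change (−0.035), whose sign was not stable: it was 0.098 with total count scaling and 0.22 without control 4.

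**Figure D3:**
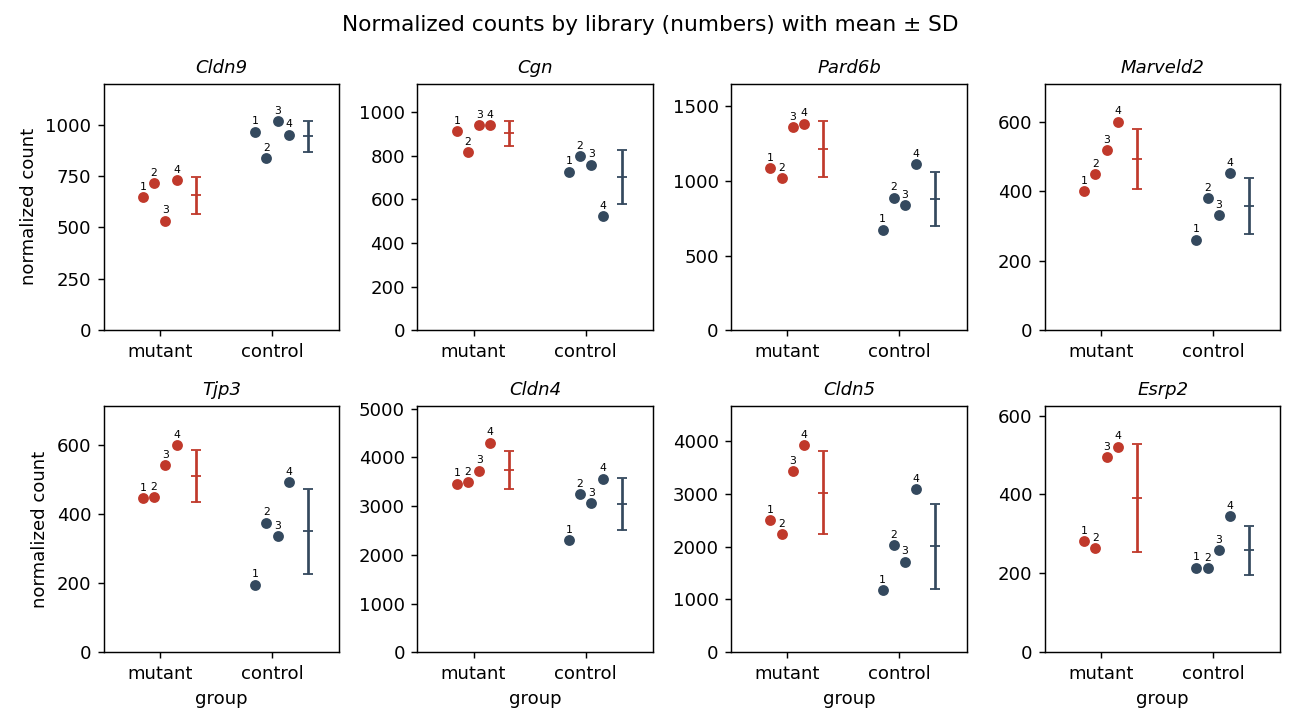
Normalized counts of 8 members in each mutant library (red, left) and control library (dark, right), numbered by replicate, with mean ± SD beside the points (n = 4 each) and every axis starting at 0. The groups do not overlap for Cldn9 and Cgn and overlap for the other 6 genes.

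Cingulin, encoded by Cgn, links tight junctions to actomyosin. Cgn had 913, 818, 939 and 942 normalized counts in mutants, against 727, 798, 758.9 and 522 in controls. All mutants were above all controls, although mutant 2 and control 2 differed by little, and control 4 was the lowest library. The log2 fold change was 0.38 (SE of 0.14 and adjusted p of 0.307 by limma), and 0.25 without control 4. Tjp3, encoding ZO-3, had 445, 449, 542 and 599 normalized counts in mutants, against 195, 374, 335 and 493 in controls, with a log2 fold change of 0.60 (SE of 0.25 and adjusted p of 0.38 by limma). Control 4 lay between mutants 2 and 3, and control 1 was far below all others; without control 1 the fold change was 0.35. An exon of Tjp3 overlaps Apba3 on the other strand, and the sources used here do not say whether counting used strand. Tjp1, encoding ZO-1, averaged 5569 ± 467 normalized counts in mutants and 5184 ± 1141 in controls (SD, n = 4 each). It was lowest in control 4, the shallowest library.

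Pard6b is a scaffold of the apical PAR polarity complex and Crb3 is the small Crumbs protein of the apical membrane. Pard6b had 1084, 1019, 1362 and 1384 normalized counts in mutants, against 674, 889, 841 and 1113 in controls. Control 4 was above mutants 1 and 2, every other control was below every mutant, and the log2 fold change was 0.47 (SE of 0.16 and adjusted p of 0.278 by limma). Crb3 averaged 476 ± 141 normalized counts in mutants and 401 ± 118 in controls (SD, n = 4 each) and shares exon sequence with Dennd1c on the other strand.

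All 4 keratins had positive fold changes, and 0 passed. Krt8 had 6199, 7084, 7648 and 11672 normalized counts in mutants, against 4579.7, 6638, 5189 and 8169.9 in controls. Its filament partner Krt18, 23697 bases away on chromosome 15, had 4443, 4515, 4864 and 5485 in mutants, against 3248, 3921, 3608 and 5532 in controls. Both were lowest in control 1; Krt8 was highest in mutant 4 and Krt18 in control 4. Krt7 averaged 2061 ± 533 normalized counts in mutants and 1768 ± 551 in controls (SD, n = 4 each). Krt19 had 794, 846, 1774 and 2358 in mutants, against 726, 862, 1017 and 1611 in controls. Mutants 4 and 3 and then control 4 were the 3 highest libraries for Krt19.

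The 4 regulators of the epithelial state had fold changes of both signs, and 0 passed. Esrp1 and Esrp2 are splicing factors that hold transcripts in their epithelial form. Esrp2 had 281, 265, 495 and 521 normalized counts in mutants, against 215, 214, 259 and 345 in controls, with a log2 fold change of 0.55 (SE of 0.26 and adjusted p of 0.442 by limma). Esrp1 had 1255, 1302, 879.5 and 814 in mutants, against 1017, 1344, 1226 and 863 in controls, with a log2 fold change of −0.077 (SE of 0.19 and adjusted p of 0.909 by limma). Mutants 3 and 4 were the highest of all libraries for Esrp2, and mutant 4, control 4 and mutant 3 the lowest for Esrp1. Under total count scaling the fold changes of Esrp1 (0.056) and Grhl2 (0.049) were positive. The log2 ratio of Esrp2 to Esrp1 was −2.15, −2.29, −0.83 and −0.64 in mutants, against −2.24, −2.65, −2.24 and −1.32 in controls. Grhl2, a transcription factor that in mice activates Cdh1 and claudin genes in epithelia, had 414, 327, 381 and 282 in mutants, against 284, 479, 351 and 385 in controls, with a log2 fold change of −0.083 (SE of 0.19 and adjusted p of 0.896 by limma). Ovol1, a zinc-finger factor of epithelial cells, averaged 402 ± 83.8 normalized counts in mutants and 313 ± 58.9 in controls (SD, n = 4 each). Esrp2 overlaps exons of Nfatc3 and 1810019D21Rik on the other strand, and in all 11 of the 38 members have an exon that overlaps another annotated gene.

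Promoter windows are shown for the 6 members that were higher in mutants at an unadjusted p below 0.05, because these members had the smallest p-values among those with positive fold changes. RefSeq windows of 300 bases (250 before to 50 after the annotated start, GRCm38.p6) were matched for 27 of the 38 members, 37 windows in all. The E-box CAGGTG, searched on both strands (CACCTG on the other), is the element to which Snail and Zeb repressors bind. It was found in 18 of the 37 windows, or 48.6%, against 20.2% of all 32851 windows, and in 14 of 27 members with a window, against 22.6% of all genes with a window. Capitals below mark this E-box in Cldn4 (chr5:134946885-134947184, minus strand), Marveld2 (chr13:100616895-100617194, minus strand), Pard6b (chr2:168080754-168081053, plus strand) and Tjp3 (chr10:81291218-81291517, minus strand). In Cgn (chr3:94786433-94786732, minus strand) and Cldn5 (chr16:18776597-18776896, plus strand) the capitals mark the grainyhead-like motif AACCNGTT, read on either strand (AACNGGTT on the other), which was found in 2 of the 37 windows (5.41%) and in 2.09% of all windows.
Cldn4: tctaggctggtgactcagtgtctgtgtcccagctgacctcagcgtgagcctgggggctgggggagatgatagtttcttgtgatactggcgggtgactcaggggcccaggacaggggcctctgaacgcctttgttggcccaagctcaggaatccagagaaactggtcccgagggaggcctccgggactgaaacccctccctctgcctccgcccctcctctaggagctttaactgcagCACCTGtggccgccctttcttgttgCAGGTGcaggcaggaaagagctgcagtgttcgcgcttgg
Marveld2: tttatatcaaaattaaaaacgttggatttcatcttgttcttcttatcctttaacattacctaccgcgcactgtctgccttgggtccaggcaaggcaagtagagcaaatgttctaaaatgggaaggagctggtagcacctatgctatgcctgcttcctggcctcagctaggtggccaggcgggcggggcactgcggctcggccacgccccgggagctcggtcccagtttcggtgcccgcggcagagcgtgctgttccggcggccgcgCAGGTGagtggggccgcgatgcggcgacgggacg
Pard6b: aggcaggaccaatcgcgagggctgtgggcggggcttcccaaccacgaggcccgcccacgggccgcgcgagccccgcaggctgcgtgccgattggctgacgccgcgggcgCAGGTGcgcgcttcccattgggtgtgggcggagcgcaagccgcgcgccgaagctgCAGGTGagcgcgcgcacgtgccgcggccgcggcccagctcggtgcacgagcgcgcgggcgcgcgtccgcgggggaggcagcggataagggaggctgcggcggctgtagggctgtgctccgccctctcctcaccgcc
Tjp3: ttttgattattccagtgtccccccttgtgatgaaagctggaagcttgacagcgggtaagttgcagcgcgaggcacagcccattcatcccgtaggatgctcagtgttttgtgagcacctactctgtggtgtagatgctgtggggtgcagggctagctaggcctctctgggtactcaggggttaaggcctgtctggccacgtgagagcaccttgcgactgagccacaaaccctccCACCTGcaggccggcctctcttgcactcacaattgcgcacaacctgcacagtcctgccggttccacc
Cgn: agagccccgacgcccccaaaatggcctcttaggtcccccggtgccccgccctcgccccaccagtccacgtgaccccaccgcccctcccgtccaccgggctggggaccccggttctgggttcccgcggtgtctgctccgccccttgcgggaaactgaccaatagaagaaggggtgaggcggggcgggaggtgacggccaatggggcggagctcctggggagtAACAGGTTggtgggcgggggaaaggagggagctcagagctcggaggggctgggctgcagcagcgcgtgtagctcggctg
Cldn5: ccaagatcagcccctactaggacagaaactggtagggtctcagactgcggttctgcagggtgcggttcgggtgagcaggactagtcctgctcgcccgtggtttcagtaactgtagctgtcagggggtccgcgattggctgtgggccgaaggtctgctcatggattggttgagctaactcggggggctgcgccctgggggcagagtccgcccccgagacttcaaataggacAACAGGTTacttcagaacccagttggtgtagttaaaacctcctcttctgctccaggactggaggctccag

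The ETS motif CCGGAAGT (ACTTCCGG on the other strand), of the family to which Etv4 and Etv5 belong, was in 3 of the 37 windows, from Cldn7 and Crb3, 8.11% of them, against 3.89% of all windows. The Crb3 windows overlap and hold the same site, which is therefore counted in each. An HNF4 motif, CAAAGTCCA (TGGACTTTG on the other strand), was in 0 of 37 windows, against 0.475% of all windows. These matches describe letters in the sequence and not bound sites.

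The range over the 4 libraries of 1 genotype exceeded the difference between group means for most members and for most genes alike. A range of 4 values is often larger than a difference of means, so these are unlike measures of spread. The range within controls on the log2 scale was larger than the difference between group means for 33 of 35 members, beside 90.5% of all genes, and the range within mutants was for 30 of 35, beside 86.5%. The median range within mutants was 0.68 for members and 0.41 for all genes, and within controls it was 0.85 for members and 0.51 for all genes. Mutant 4 held the highest of the 8 values for 21 of 35 members, beside 20.1% of all genes, and control 4 for 6, beside 22.7%. Control 1 held the lowest value for 20 of 35, beside 14.9% of all genes. Centred on each gene's own mean, the median member was −0.072, −0.078, 0.19 and 0.49 in mutants 1 to 4, against −0.55, −0.082, −0.19 and 0.28 in controls 1 to 4, while the median of all genes stayed between 0.0044 and 0.010 in every library.

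The proximal tubule score, the mean centred log2 level of the 7 measurable proximal tubule markers, ordered the libraries in a similar way. It was −0.69, −0.095, 1.28 and 2.62 in mutants 1 to 4, against −2.73, −0.78, −0.94 and 1.34 in controls 1 to 4. Control 1 was lowest and mutant 4 highest on both measures, and the libraries fell into separate clusters, so no correlation is given. With this score as a covariate, 0 of 35 members passed by limma, 19 of 35 had positive fold changes beside 52.2% of all genes, and the members' median log2 fold change was 0.038. Under that fit Cldn9 stood at −0.53 and Cgn at 0.46, close to their values without it, while Cldn5 stood at 0.18, Tjp3 at 0.23, Marveld2 at 0.19 and Pard6b at 0.23. Among the claudins plotted with Hnf4a, Cldn1 stood at 0.13, Cldn2 at −2.61, Cldn10 at −0.25, Cldn19 at −1.79 (adjusted p of 0.0802 by limma) and Cldn23 at −0.85. With the score as covariate the all-gene count past the threshold was 162. The score comes from the same libraries as the members' values. All 7 of its markers also had positive fold changes, so this fit cannot separate tubule content from genotype.

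**Figure D4:**
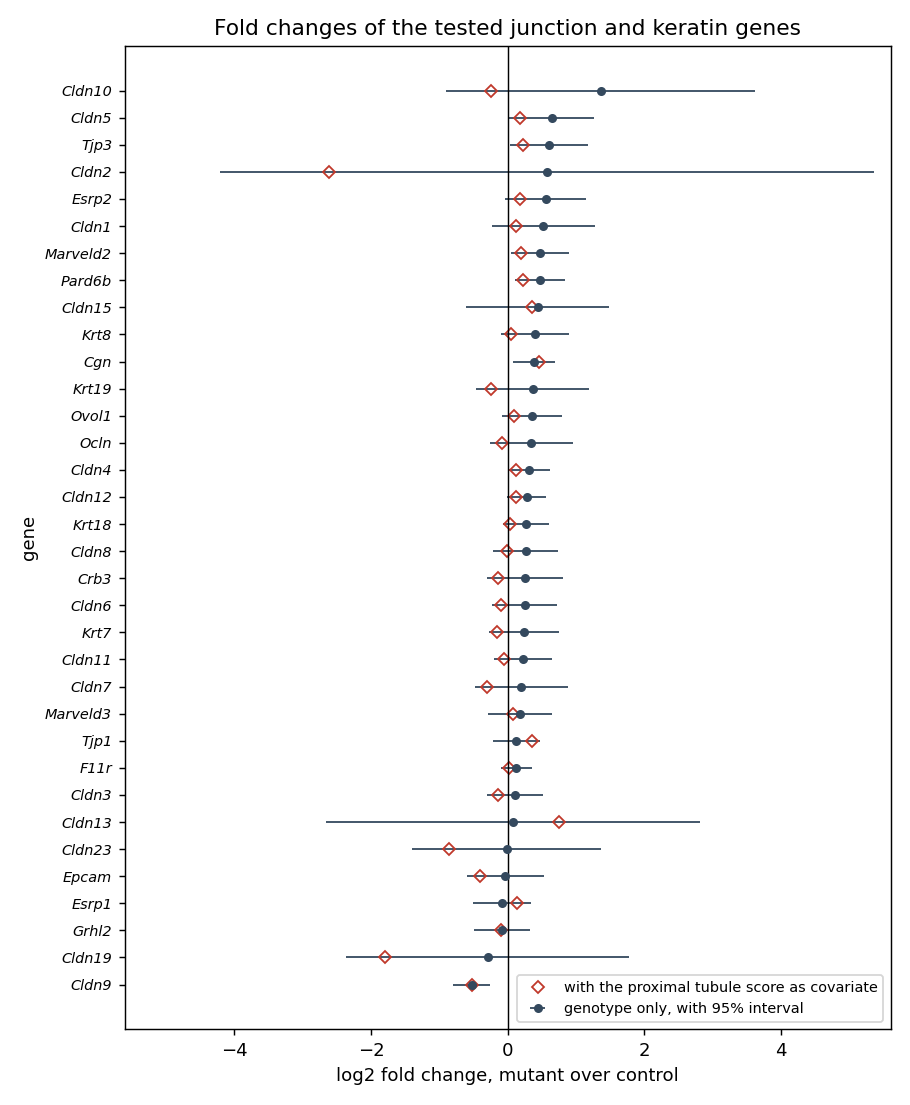
Log2 fold change (mutant over control) of 34 of the 35 tested members, ordered by size, with 95% intervals from limma (dark circles, n = 4 each group), and the fold change when the proximal tubule score is a covariate (open red diamonds). Of the 34 members plotted, 28 have circles right of 0 and 18 have diamonds right of 0.

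Among libraries that share a number in their names, the members' median difference on the log2 scale was 0.22 for mutants 1 and 2 against controls 1 and 2, and 0.32 for mutant 4 against control 4. The first difference was positive for 28 of 35 members, beside 50.8% of all genes, and the second for 25 of 35, beside 53.1%. It was positive in both for 20 of 35 members, beside 30.2% of all genes. Control 3 and mutant 3 carry numbers that no other library shares.

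Of 35 other tight junction and polarity genes tested, 0 were higher and 0 lower past the limma threshold, 26 had positive fold changes, and the median was 0.087. The smallest p-values belonged to Patj, a scaffold of the Crumbs complex, with a log2 fold change of 0.62 (SE of 0.13 and adjusted p of 0.101 by limma), and Crb2, a Crumbs protein of podocytes, with a log2 fold change of 1.12 (SE of 0.27 and adjusted p of 0.124 by limma). Crb2 had 425, 356, 697 and 759.5 normalized counts in mutants, against 214, 220.4, 211 and 354 in controls. The lowest mutant was just above the highest control. Of 7 podocyte markers tested 7 had positive fold changes and 0 passed, their sums were 10084 to 18439 in mutants and 8230.1 to 9936 in controls, and their part in the Crb2 values was not tested. Of 30 other epithelial genes tested, 0 passed in either direction, 24 had positive fold changes, and the median was 0.34. Dsp, which encodes the desmosome plaque protein desmoplakin, had a log2 fold change of 0.99 (SE of 0.19 and adjusted p of 0.0748 by limma), and Myo5b, a motor of apical recycling, a log2 fold change of 1.27 (SE of 0.26 and adjusted p of 0.098 by limma). Dsp had 2537, 2439.5, 3783 and 3244 normalized counts in mutants, against 1314, 1790.5, 1819 and 1124 in controls. Of 13 mesenchymal and epithelial-mesenchymal transition genes, 0 passed in either direction, 8 had positive fold changes, and the median was 0.15. Vim, the mesenchymal filament protein vimentin, had 26811, 27448, 27719 and 28179.9 normalized counts in mutants, against 21345, 20213, 21163 and 21352 in controls, with a log2 fold change of 0.39 (SE of 0.071 and adjusted p of 0.0688 by limma). Cdh11, a mesenchymal cadherin, had a log2 fold change of −0.22 (SE of 0.071 and adjusted p of 0.242 by limma). For Patj, Crb2, Dsp, Myo5b and Vim every mutant was above every control, beside 4.17% of all genes. For Cdh11 every mutant was below every control, beside 4.43%. All of these genes were picked for the smallest p-values of their lists, which favours groups without overlap. The shares of all genes, which were not picked, are therefore no like comparison.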

How the data were processed

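Polyadenylated RNA of 4 mutant and 4 control kidney pairs was sequenced, per the labels. The submitters' processing notes name kallisto 0.46.0, DESeq2 1.40.2, fastp 0.23.2 and build mm10 without their roles. The deposited log2 values of 21291 gene rows, which the authors call normalized, were found to be log2(estimated count + 1) with library depth left in: undoing the log gave whole numbers (within 1e-06) for 73.4% of values. The authors' deposited table holds 644 genes, with p-values, log2 fold changes, a score (the test statistic) and a signal (the mean normalized count), per the file headers.

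Size factors by median of ratios (0.361 in control 4 to 1.27 in control 2) turned the recovered estimated counts into the normalized counts printed. A gene was tested if it had at least 10 normalized counts in at least 4 libraries. The test was limma 3.58.1 (R 4.3.3; eBayes with trend) on the log2(normalized count + 1) scale, two-sided, with genotype as its term and Benjamini-Hochberg adjustment over 14974 genes at 0.05. Fold changes on this scale understate the change of low genes. The steps were tested on simulated data. The labels do not say which embryos were littermates of each other.

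The members and gene lists were chosen with earlier results of these data known. Counts cover all members, and 1 tested member is not reported here by name or in the figures. Fold changes are given for members past the threshold or with groups that did not overlap, the 4 highest and 4 lowest fold changes and the 6 widest ranges over the 8 libraries, and for the 2 smallest p-values of each other list. Gene positions are from GENCODE M21 on GRCm38. The alternatives covered filters, pseudocounts, scaling, variance trend, library weights, limma voom, blocks, a proximal tubule covariate and left-out libraries; voom without control 4 was added after the data were seen. Figures were drawn with matplotlib 3.10.9.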

Additional observations from a re-analysis of the deposited data

Results flagged for a closer look

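In 2 of 68 groups of 4 libraries formed by 34 tested members, 1 library stood apart from the other 3, with a gap to its nearest neighbour above Dixon's critical share of the group's range on the log2(normalized count + 1) scale; chance gives about 1 in 20 such groups. Mutant 4 stood apart among mutants for Cldn12, at 1999 normalized counts and a gap of 0.841 of the range. Mutant 4 also stood apart among mutants for Epcam, at 3561 normalized counts and 0.887.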

How the results depend on the processing

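Members past the threshold numbered 0 in every alternative except library weights, which called 3 of 35 (Krt18, Pard6b and Cldn9), beside 748 of all 14974 genes. The count over all genes was 45. It was 11 with total count scaling, 28 with no variance trend, 69 with voom, 162 with the proximal tubule covariate, 179 without mutant 4 and control 4 and 134 with voom without control 4. Leaving out each library gave 2 (without control 3) to 161 (without control 4). Mutants and controls of the same replicate number deviated together with correlations of 0.27, 0.098, −0.13 and 0.35 for replicates 1 to 4. The replicate numbers were therefore not taken as pairs. Mutant 2 correlated best with control 1 (0.24), whose library name shares its number. Mutant 3 correlated best with control 4 (0.18), whose library name does not. With the replicate block 133 genes and 0 members passed, and with the library number block 36 genes and 0 members. Members at an unadjusted p below 0.05 by limma numbered 17 with the replicate block and 12 with the library number block, against 7 with neither. All genes below it numbered 2459, 1842 and 1804 in the same order.

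Cldn9 stayed negative in every fit (−0.59 to −0.40), and Cldn1, Cldn4, Cldn5, Cgn, Tjp3, Pard6b, Marveld2 and Esrp2 positive. The sign turned in at least 1 alternative for 18 of the 35 tested members, 7 of them detailed next, and the cause was not tested. Of the other 11, Cldn6, Cldn8, Cldn11, Crb3, Krt7, Krt19 and Ocln turned negative only with the tubule covariate. Cldn3 and Cldn7 turned negative with that covariate and without control 1, and Tjp1 only without control 4. Epcam was between −0.41 and 0.22 over the alternatives. Cldn2 was −1.15 with the library number block, −2.61 with the tubule covariate and −0.22 to 2.31 over the 4 of 8 fits with 1 library left out in which it met the filter; those without mutant 3, mutant 4 or control 4, its high libraries, gave no value. Cldn10 was −0.25 with the tubule covariate and 0.66 to 2.30 with 1 library left out. Cldn13 was −0.11 with a pseudocount of 0.5, −0.025 with voom, −0.062 with the library number block and −0.28 to 1.10 over the 4 of 8 fits with 1 library left out in which it met the filter, which do not include that without mutant 2. Cldn19 was 0.18 with voom without control 4 and −1.07 to 0.29 with 1 library left out. Cldn23 was 0.012 with a pseudocount of 8, 0.12 with total count scaling, 0.15 with voom, 0.30 with voom without control 4 and −0.43 to 0.36 with 1 library left out. Esrp1 was 0.056 with total count scaling, 0.057 with the library number block, 0.13 with the tubule covariate and −0.19 to 0.042 with 1 library left out. Grhl2 was 0.049 with total count scaling, 0.015 with library weights, 0.041 without mutant 4 and control 4 and −0.21 to 0.043 with 1 library left out. Counting error is largest in control 4 and for Cldn2, Cldn10, Cldn13, Cldn15 and Cldn16, which had under 35 normalized counts in most libraries.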
